A study of Mus musculus with 64 samples.

Results

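White adipose tissue (WAT) of mice labelled as wild type was compared between a high-sucrose diet (HSD) and chow. The comparison took every WAT library whose genotype label was CTRL, 4 libraries from HSD-fed mice and 4 from chow-fed mice, which is 8 of the 64 libraries of the series. The mice were C57BL/6 males (C57BL/6J in the study description), kept in a 12-h light and dark cycle and fed chow up to the age of 8 weeks. Their diets then differed for 8 weeks, and tissue was taken at 16 weeks. Each library came from a separate mouse. The series also holds liver, muscle and heart, and mice with a mutated Pklr gene, which encodes the liver and red cell pyruvate kinase; their WAT, labelled KO, is used below only to ask whether the diet effect differed by genotype label. Pklr itself was higher in the livers of mice labelled KO than of those labelled CTRL (values below). Whether a mutated Pklr was still transcribed and counted was not tested. The names "CTRL" and "labelled KO" are therefore used here as names of groups, and which of them carries the mutation was not settled. The fat depot, the sucrose content of the diet and the hour of sampling were not given in the sources used here.

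White fat stores energy as triglyceride and secretes hormones such as leptin and adiponectin. Its adipocytes can build fatty acids from sugar: glucose or fructose is broken down to pyruvate, pyruvate becomes mitochondrial citrate, and citrate leaves the mitochondrion to supply the acetyl-CoA from which fatty acid synthase, elongases and desaturases make fatty acids. The adipocytes sit among blood vessels, fibroblasts, matrix and macrophages, some of which take up lipid and carry a lysosomal gene programme (lipid-associated macrophages). A bulk library mixes the RNA of all these cells, so fewer cells of a type and less RNA per cell cannot be told apart.

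The chow libraries held 8288079 to 11927089 estimated counts and the HSD libraries 7791836 to 8146066, so that every HSD library was shallower than every chow library. Levels are given as TPM, transcript abundance scaled for transcript length and library size. The tissue label matched its markers: Adipoq, which encodes adiponectin, ran from 4180 to 5661 TPM in the chow libraries. The share of counts from mitochondrially encoded genes was 7.56% to 8.27% on chow and 8.79% to 9.96% on HSD. The libraries also differed in how strongly counts depended on transcript length. The slope of log2 count, relative to the 16 WAT libraries, on log2 length was 0.0237 to 0.167 on chow, highest in chow replicates 2 (0.167) and 4 (0.105), and -0.0467 to 0.0124 on HSD, again without overlap. In the HSD libraries short transcripts therefore counted for more, and several lists are given below also with that trend removed (each library's counts corrected for its trend on length). No 2 replicates agreed within sampling noise.

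Of 13255 genes tested, 632 (4.77%) differed between the diets at an adjusted p under 0.05 (edgeR quasi-likelihood test, Benjamini-Hochberg), 245 of them higher (1.85%) and 387 lower (2.92%) on HSD. The median log2 fold change over all genes was -0.04, and 45.2% of genes had a positive one. A median of -0.17 was obtained when TPM values were compared (limma on log2(TPM + 1)), with 128 genes higher and 1320 lower. TPM levels of a given gene are therefore lower on HSD more often than not. The 4 HSD libraries all lay above the 4 chow libraries in TPM for 1.69% of genes, and all below for 18.3%, and the members' counts below are to be read against those shares.

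The number of calls rested heavily on single libraries. Leaving out chow replicate 1, 2, 3 or 4 left 490, 147, 1024 and 151 genes called, and leaving out HSD replicate 1, 2, 3 or 4 left 94, 185, 341 and 220. Without both chow replicates with the steepest length slopes, 2 and 4, 9 genes were called. No gene called here changed its direction in any of the refits that tested it. For each gene named below as risen or fallen, the number of the 8 fits with a library left out that kept the call is given where it was under 8 and the gene carries a result.

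Genes of fatty acid synthesis were higher on HSD. Of 25 tested, 8 rose, 23 had a positive log2 fold change and the median was 0.87. In 14 of the 25 all HSD libraries lay above all chow libraries in TPM. The genes that rose act before and after fatty acid synthase itself: Acss2, which makes acetyl-CoA from acetate; Slc25a1, the mitochondrial citrate carrier; Tecr and Hsd17b12, of the elongation cycle; the elongase Elovl5; and the desaturases Fads1, Fads2 and Scd1. Windows before a RefSeq start of 3 of them are shown first because these genes rose together, and because the CCAAT box in them was found in more genes of this list than any other of 9 motifs searched. Capitals mark the box, read on either strand (CCAAT or ATTGG), in the 250 bases before the RefSeq start (GRCm38.p6). The Acss2 window is chr2:155517793-155518042 (plus strand), that of Tecr chr8:83594492-83594741 (minus strand) and that of Slc25a1 chr16:17928220-17928469 (minus strand). The Tecr window lies inside the GENCODE span of its gene and the Acss2 window ends inside its own (spans given below). The RefSeq starts used for these genes are therefore not their outermost ones.
Acss2: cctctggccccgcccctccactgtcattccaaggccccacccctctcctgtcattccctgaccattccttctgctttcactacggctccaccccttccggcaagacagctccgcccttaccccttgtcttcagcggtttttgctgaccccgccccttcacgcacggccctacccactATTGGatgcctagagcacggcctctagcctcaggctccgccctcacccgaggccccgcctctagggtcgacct
Tecr: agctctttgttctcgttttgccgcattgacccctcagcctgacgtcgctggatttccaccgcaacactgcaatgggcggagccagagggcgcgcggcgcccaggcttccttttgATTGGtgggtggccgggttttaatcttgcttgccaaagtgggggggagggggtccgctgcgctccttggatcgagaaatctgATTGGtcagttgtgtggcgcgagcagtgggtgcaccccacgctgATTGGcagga
Slc25a1: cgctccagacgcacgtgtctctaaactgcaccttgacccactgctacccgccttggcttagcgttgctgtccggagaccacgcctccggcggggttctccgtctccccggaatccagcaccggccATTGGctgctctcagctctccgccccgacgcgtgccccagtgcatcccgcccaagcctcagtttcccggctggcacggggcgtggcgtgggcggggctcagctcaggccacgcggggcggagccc
The box lies 73 bases before the RefSeq start used for Acss2 and 125 before that for Slc25a1, and at 136, 54 and 10 before that for Tecr. Windows of 250 bases before to 50 after a start held CCAAT in 16 of the 22 lipogenic genes with a window (72.7%), in 41.1% of 27025 genes and in 42.9% of the genes tested. The share was 51.3% of the genes that rose and 36.8% of those that fell. Other motifs with a higher share in the list than in all genes were CACGTG, in 3 of the 22 (13.6% against 8.09%), and some in 1 gene each (4.55%). The latter were TCACNCCAC (1.44% of all genes), CCGGAAGT (4.31%) and the long YY1 motif (0.755%). Of the genes tested, 11.4% held CACGTG and 8.7% CCGGAAGT. These letters are a description of the sequence and not a measured binding site.

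Acss2 (chr2:155517948-155585724) was at 25.9, 81.3, 133 and 122 TPM in chow replicates 1 to 4 and at 366, 454, 399 and 336 TPM in HSD replicates 1 to 4. The groups were far apart, and chow replicate 1 was the lowest library. The log2 fold change was 2.29 ± 0.60 (SE, n = 4 a group, adjusted p = 0.0446). Tecr (chr8:83571698-83607971), the last reductase of the elongation cycle, was at 201, 203, 224 and 219.7 TPM on chow and at 403, 514, 447 and 432 TPM on HSD. These groups were each tight and did not overlap, with a log2 fold change of 1.17 ± 0.20 (adjusted p = 0.00767). Fads1 (chr19:10182888-10196877), the delta-5 desaturase of polyunsaturated fatty acid synthesis, was at 23.7, 35.7, 49.9 and 44.1 TPM on chow and at 83.6, 92.4, 85.1 and 81.8 TPM on HSD, again without overlap (1.35 ± 0.20, adjusted p = 0.00339). Tecr and Fads1 kept their calls in all 8 fits with a library left out, Fads2 in 5, Hsd17b12 in 3, Elovl5 in 2, and Acss2, Slc25a1 and Scd1 in 1, the fit without chow replicate 3.

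Scd1, the stearoyl-CoA desaturase that makes monounsaturated fatty acids, was among the most abundant transcripts of the tissue, at 5766, 12220.0, 13070.0 and 15132 TPM on chow and 20119, 23437, 25058 and 21722 TPM on HSD (1.14 ± 0.28, adjusted p = 0.0348). Slc25a1 was at 89.3, 141, 254 and 208 TPM on chow and at 359, 388, 385 and 281 TPM on HSD (1.22 ± 0.31, adjusted p = 0.0382). In both, all HSD libraries lay above all chow libraries and chow replicate 1 was lowest. Fads2, the delta-6 desaturase, went from 14.8 ± 3.48 to 24.5 ± 6.21 TPM (SD, n = 4; log2 fold change 0.82 ± 0.18, adjusted p = 0.0228). Hsd17b12 went from 119.8 ± 27.3 to 181 ± 11.3 TPM (0.77 ± 0.17, adjusted p = 0.0236). For Elovl5, with 53.7 ± 6.57 TPM on chow and 62.7 ± 4.06 TPM on HSD, the ranges overlapped (0.41 ± 0.10, adjusted p = 0.0355).

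The enzymes at the centre of the pathway had differences that did not pass the test, and their chow libraries were far apart. Fasn, fatty acid synthase, was at 86.5, 539, 922 and 1046 TPM on chow and at 1195, 1452, 1555 and 949.6 TPM on HSD. HSD replicate 4 lay within the chow range (1.18 ± 0.58, adjusted p = 0.241). Acly, which splits citrate into acetyl-CoA, was at 54.5, 178, 290.2 and 278 TPM on chow and at 503, 765, 781 and 473 TPM on HSD. These groups did not overlap (1.84 ± 0.59, adjusted p = 0.0832). Neither did those of Acaca, acetyl-CoA carboxylase (1.19 ± 0.35, adjusted p = 0.0617), Elovl6, the elongase of long saturated fatty acids (2.26 ± 0.69, adjusted p = 0.0685), Me1, malic enzyme (1.4 ± 0.41, adjusted p = 0.0606), or Thrsp, the thyroid hormone responsive Spot 14 gene (1.35 ± 0.38, adjusted p = 0.0534).

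Chow replicate 1 had the lowest chow value in 15 of the 25 lipogenic genes. The summed TPM of the list, divided by the chow mean, was 0.515, 1.007, 1.18 and 1.299 in the chow libraries and 1.769 to 2.188 in the HSD libraries. Without chow replicate 1 the median log2 fold change of the list was 0.82 and 4 genes were called; with any library left out the count ran from 2 (without HSD replicate 1) to 12 (without chow replicate 3). With the length trend removed 5 were called (median 0.77; the calls of Acss2, Slc25a1 and Elovl5 were lost, at adjusted p 0.0548, 0.0591 and 0.284), and without chow replicates 2 and 4 the median was 1.02 with 0 genes passing edgeR's test (DESeq2 on all libraries called 16, and 18 were higher at an unadjusted p under 0.05). The transcription factor genes of the pathway did not pass: Srebf1, which encodes SREBP-1, was at 54.8 ± 23 TPM on chow and 77.1 ± 11.1 TPM on HSD (adjusted p = 0.0975), and Mlxipl, which encodes ChREBP, at 28.5 ± 12.3 and 37.4 ± 8.88 TPM (adjusted p = 0.134).

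**Figure D1:**
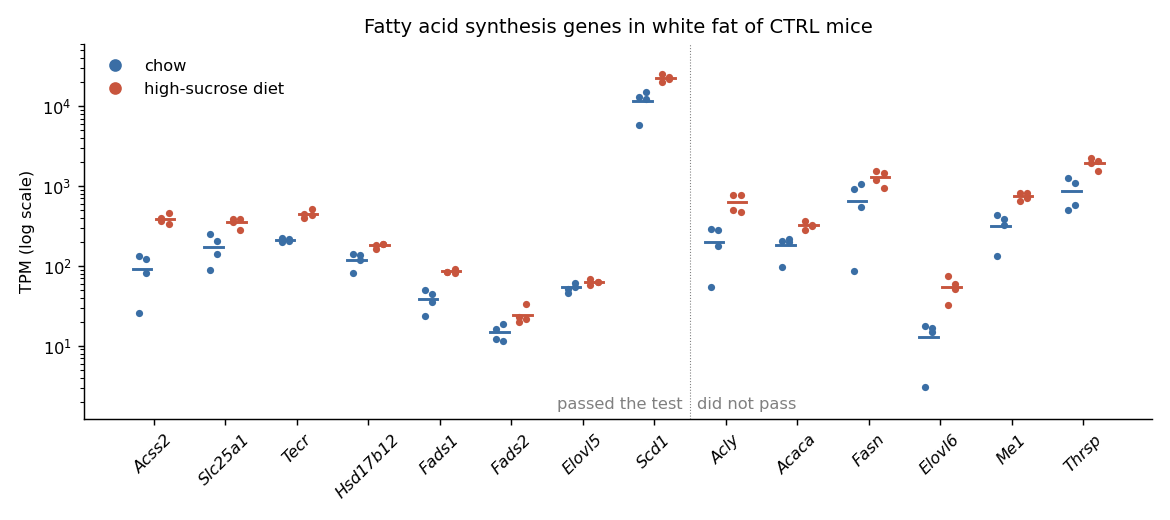
Levels in TPM (log axis) of 14 genes of fatty acid synthesis in the 4 chow and the 4 HSD libraries of CTRL WAT; points are libraries and bars are group means. The 8 genes left of the dotted line passed the test and the 6 to its right did not; for Fasn the chow points spread from 86.5 to 1046 TPM.

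Genes that bring sugar towards this pathway gave fewer calls. Slc2a5, the fructose transporter GLUT5, was at 0.0485, 0.159, 0.140 and 0.0569 TPM on chow and at 0.728, 1.73, 1.24 and 0.945 TPM on HSD. The groups were far apart but both levels were very low: 9 counts in all chow libraries and 86 in all HSD libraries, a ratio of depth-scaled counts of 11.61 (95% interval 5.837 to 26.24, counting error only). The log2 fold change was 3.54 ± 0.83 (adjusted p = 0.027). Fn3k (chr11:121434913-121450491) encodes a kinase that acts on sugars bound to proteins, whatever sugar they came from. It was at 1.49, 1.51, 4.12 and 2.72 TPM on chow and at 8.23, 7.89, 6.78 and 7.84 TPM on HSD. These also did not overlap (1.64 ± 0.27, adjusted p = 0.00569). Of the 10 genes on the fructose list these 2 rose; Khk, which starts fructose breakdown, was at 13.5 ± 4.45 TPM on chow and 20.2 ± 2.62 TPM on HSD (adjusted p = 0.0682). The call of Slc2a5 was kept only in the fit without chow replicate 3 (adjusted p 0.0309 to 0.0792 with a library left out), that of Fn3k in all 8.

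Of 22 genes of glucose uptake and glycolysis 3 rose, and the list's median was 0.30. Slc2a4, the insulin-responsive transporter GLUT4, was at 109 ± 6.64 TPM on chow and 134 ± 15.2 TPM on HSD, with overlapping ranges (0.48 ± 0.11, adjusted p = 0.0249). Pkm, the muscle-type pyruvate kinase and not the gene mutated in this study, was at 164, 218, 267 and 242 TPM on chow and at 299, 338, 355 and 312 TPM on HSD (0.75 ± 0.18, adjusted p = 0.034). Ldhb, a lactate dehydrogenase subunit, went from 83.0 ± 2.21 to 97.4 ± 2.90 TPM, a small step between tight groups (0.38 ± 0.08, adjusted p = 0.0173). Pyruvate entry into the mitochondrion and the tricarboxylic acid cycle gave 4 rises among 32 genes, with a median of 0.25. Mpc1, a subunit of the pyruvate carrier, was at 341, 505, 519 and 554 TPM on chow and at 744, 747, 889.7 and 795 TPM on HSD (0.86 ± 0.20, adjusted p = 0.0249). Pdhb, of the pyruvate dehydrogenase that makes acetyl-CoA, went from 165 ± 35.2 to 287 ± 30.1 TPM (0.97 ± 0.20, adjusted p = 0.0181). Pdk1, a kinase that inhibits that same enzyme, rose as well, from 8.14 ± 0.602 to 12.5 ± 1.18 TPM (0.78 ± 0.15, adjusted p = 0.0114). The calls of Pdk1 held in all 8 fits with a library left out, those of Ldhb in 7 (lost without HSD replicate 1, adjusted p = 0.0573), of Pdhb in 5, of Slc2a4 in 3, and of Pkm and Mpc1 in 1, without chow replicate 3. The glycolysis list has short transcripts (median 1141 bases). With the length trend removed edgeR called 0 of its genes and the median was 0.22 (on the deposited counts 11 were higher at an unadjusted p under 0.05 and DESeq2 called 6): Slc2a4 was at 0.34 (adjusted p = 0.108), Pkm at 0.60 (adjusted p = 0.0886) and Ldhb at 0.24 (adjusted p = 0.0816). Mpc1 lost its call too (adjusted p = 0.0678).

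Fatty acid synthesis consumes NADPH. Of 12 genes on a list of the pentose phosphate pathway and NADPH supply 2 rose, and both act in the non-oxidative branch of that pathway, which makes no NADPH itself. Tkt, transketolase, was at 28.3, 51.3, 71.7 and 57.8 TPM on chow and at 99.7, 126, 141 and 65.6 TPM on HSD, where HSD replicate 4 lay inside the chow range (1.21 ± 0.31, adjusted p = 0.04). Taldo1, transaldolase, went from 408 ± 108 to 575 ± 46.7 TPM (0.67 ± 0.17, adjusted p = 0.0406). G6pdx, which makes the first NADPH of the pathway, was at 202 ± 22.4 and 219 ± 20.9 TPM (adjusted p = 0.242). Of 17 genes of triglyceride synthesis 1 rose: Dgat1, which adds the last fatty acid, went from 118 ± 20.9 to 147 ± 12.3 TPM (0.49 ± 0.13, adjusted p = 0.0415). Gpam, which adds the first, was at 136, 129.8, 75.6 and 125 TPM on chow and at 65.3, 76.0, 88.5 and 72.3 TPM on HSD (-0.47 ± 0.17, adjusted p = 0.111). Of 23 genes of cholesterol synthesis 1 rose, Tm7sf2, a sterol reductase (1.31 ± 0.29, adjusted p = 0.0228, with overlapping ranges). With a library left out, Tkt kept its call in 2 fits, Taldo1 and Dgat1 in 1 each and Tm7sf2 in 6; with the length trend removed Taldo1 (adjusted p = 0.0661) and Dgat1 (adjusted p = 0.0626) lost theirs.

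Nuclear genes for subunits of the respiratory chain had higher counts on HSD with small differences. All 80 tested had a positive log2 fold change, with a median of 0.44, and 34 rose. By complex, 14 of 36 rose for complex I (NADH dehydrogenase), 1 of 4 for complex II, 3 of 9 for complex III, 10 of 14 for complex IV (cytochrome c oxidase) and 6 of 17 for complex V (ATP synthase). In TPM all HSD libraries lay above all chow libraries for 19 of the 80, against 1.69% of all genes. Whether TPM is free of the libraries' differing trends on length was not tested. Of the 13 genes the mitochondrion encodes itself, 2 rose and 12 were higher. Among 78 mitochondrial ribosomal proteins 3 rose, with a median of 0.27, and among 77 cytosolic ones 3 rose as well, with a median of 0.29. These short transcripts (medians of 784 bases for the mitochondrially encoded genes, 1052 and 696 for the ribosomal proteins) moved with the length trend: once it was removed the medians were 0.14 for the mitochondrially encoded genes, 0.21 for mitochondrial and 0.15 for cytosolic ribosomal proteins. The calls were then 0, 2 and 0 by edgeR (on the deposited counts 5, 30 and 43 were higher at an unadjusted p under 0.05, and DESeq2 called 4, 13 and 19). Leaving out 1 library moved the calls between 0 (without HSD replicate 1) and 15 for mitochondrial and 22 for cytosolic ribosomal proteins (both without chow replicate 3).

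Ndufa4 (chr6:11900292-11907497), a subunit of cytochrome c oxidase, was at 818, 762, 861 and 783 TPM on chow and at 1089.6, 1072, 1047 and 1136 TPM on HSD. All HSD libraries were higher and both groups were tight (0.57 ± 0.10, adjusted p = 0.00852). Uqcrh, the hinge protein of complex III, was at 616, 522, 633 and 560.2 TPM on chow and at 769.7, 750.5, 712 and 729 TPM on HSD (0.53 ± 0.10, adjusted p = 0.013). Ndufa12, of complex I, was at 204, 148, 212 and 181 TPM on chow and at 243, 241, 230.5 and 243 TPM on HSD (0.58 ± 0.12, adjusted p = 0.0154). None of these groups overlapped. Cox8b, a cytochrome c oxidase subunit known from brown fat and muscle, had the largest log2 fold change of the 34, at 41.4, 34.1, 27.8 and 42.4 TPM on chow and 77.6, 63, 79.6 and 74.9 TPM on HSD (1.24 ± 0.28, adjusted p = 0.0243). Atp5l, of ATP synthase (0.52 ± 0.11, adjusted p = 0.0208), and Sdhd, which anchors complex II (0.34 ± 0.09, adjusted p = 0.0424), rose with overlapping ranges in TPM. The mitochondrially encoded mt-Nd3 (0.85 ± 0.19, adjusted p = 0.0239) and mt-Co2 (0.70 ± 0.18, adjusted p = 0.0355) rose without overlap. Ndufa4 kept its call in all 8 fits with a library left out, Uqcrh in 7, Ndufa12 and Atp5l in 6, Cox8b and mt-Nd3 in 3, mt-Co2 in 2 and Sdhd in 1. With the length trend removed Cox8b (adjusted p = 0.0607), Sdhd (adjusted p = 0.123), mt-Nd3 (adjusted p = 0.073) and mt-Co2 (adjusted p = 0.0928) lost their calls.

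Members that did not pass included core subunits. Ndufs1, the largest subunit of complex I, was at 90.2 ± 10.2 TPM on chow and 96.2 ± 12.9 TPM on HSD (0.28 ± 0.12, adjusted p = 0.165), and Uqcrc1, a core subunit of complex III, at 172 ± 15.2 and 172 ± 10 TPM (0.19 ± 0.11, adjusted p = 0.294). Ppargc1a, the coactivator PGC-1alpha of mitochondrial biogenesis, was at 1.42 ± 0.339 and 2.02 ± 0.707 TPM (adjusted p = 0.553). Of 19 genes of mitochondrial DNA maintenance and biogenesis 1 rose, Ssbp1, a single-strand DNA binding protein (0.46 ± 0.11, adjusted p = 0.0281, kept in 3 of the 8 fits with a library left out; 0.0805 with the length trend removed). The median transcript length of the chain's 80 genes was 651 bases, against 2228 for all genes. With the length trend removed the median log2 fold change was 0.32, 79 of the 80 were higher and 7 were called. Without chow replicates 2 and 4, which had the steepest length slopes, the median was 0.28, 78 were higher and edgeR called 0 (on all libraries 66 were higher at an unadjusted p under 0.05 and DESeq2 called 49). With 1 library left out the count ran from 2 (without HSD replicate 1) to 56 (without chow replicate 3); it was 28, 7 and 3 without chow replicates 1, 2 and 4, and 12, 8 and 17 without HSD replicates 2, 3 and 4. The share of the difference that belongs to transcript length was not tested beyond these fits.

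**Figure D2:**
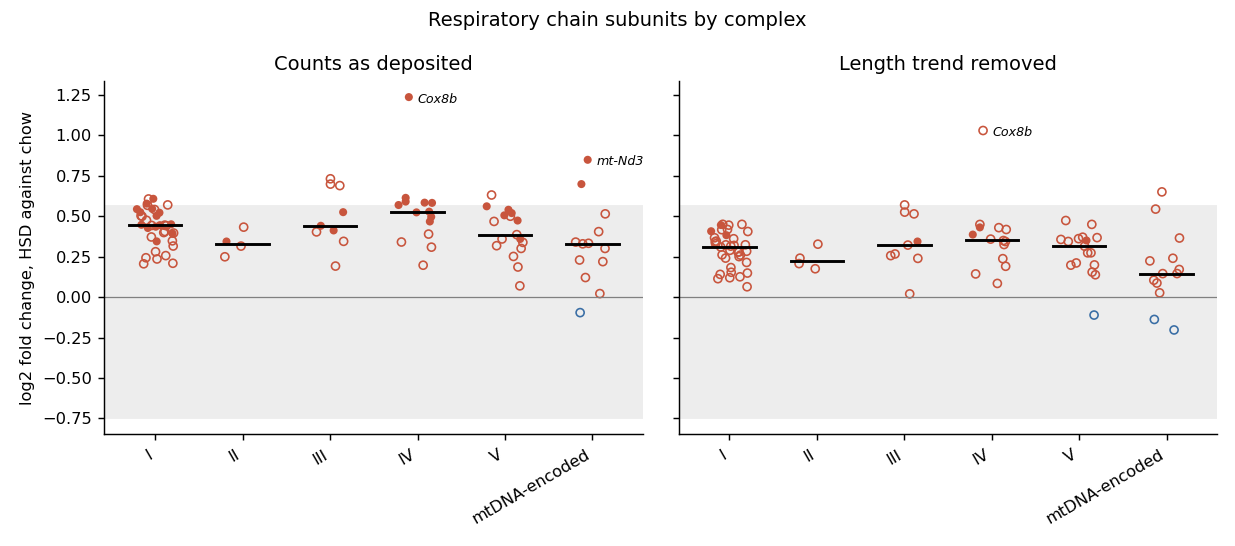
Log2 fold change (HSD against chow) of each respiratory chain gene by complex, from the deposited counts and after the length trend was removed; filled points passed the test, red is higher and blue lower, black bars are medians, and the grey band spans the 5th to 95th percentile of all genes (-0.75 to 0.56). Nearly all points lie above 0 in both panels, with 34 nuclear genes passing in the first and 7 in the second.

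Hormones and secreted proteins of adipocytes moved in both directions: of 22 tested on the adipokine and adipose expansion list 2 rose and 5 fell, with a median of -0.42. Lep, which encodes leptin, was at 507, 669, 474 and 449.7 TPM on chow and at 205, 316, 200.4 and 263 TPM on HSD. All HSD libraries were lower (-0.94 ± 0.23, adjusted p = 0.0355). Retn, which encodes resistin, was at 2312, 2174, 3775 and 3291 TPM on chow and at 4688, 4537, 4021 and 4004 TPM on HSD, and Rbp4 (chr19:38116629-38125281), the retinol binding protein, at 655, 902, 815 and 953 TPM on chow and at 1316, 1517, 1399 and 1270.1 TPM on HSD. Both were higher in all HSD libraries, with log2 fold changes of 0.75 ± 0.19 for Retn (adjusted p = 0.0387) and 0.91 ± 0.16 for Rbp4 (adjusted p = 0.00852). Sfrp5 (chr19:42197971-42202252), a secreted Wnt antagonist, was at 67.1, 60.4, 20.2 and 35.2 TPM on chow and at 6.54, 12.4, 5.23 and 9.78 TPM on HSD. It fell by 2.28 ± 0.41 on the log2 scale (adjusted p = 0.0108). Npr3, the clearance receptor for natriuretic peptides, fell from 359 ± 50.9 to 154 ± 24.1 TPM without overlap (-1.03 ± 0.19, adjusted p = 0.0118). The other 2 falls, Apln and Sparc, are given with the vessel and matrix genes. Adipoq had a log2 fold change of 0.20 ± 0.14 (adjusted p = 0.402). Rbp4 and Sfrp5 kept their calls in all 8 fits with a library left out, Npr3 in 7, and Lep and Retn only without chow replicate 3 (adjusted p 0.0378 to 0.117 for Lep, 0.0116 to 0.107 for Retn). With the length trend removed the call of Retn was lost (adjusted p = 0.0663).

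Genes of the lipid droplet and lipolysis gave few calls: 2 of 21 fell and the median was 0.01. Their summed level was nonetheless lower in every HSD library, at 7869 to 8958 TPM against 9183 to 11060 TPM on chow. In 4 of the 21 all HSD libraries lay below all chow libraries in TPM, a share near the 18.3% of all genes. Prkar2b, the regulatory subunit of the protein kinase A that switches on lipolysis, was at 366, 435, 369 and 405 TPM on chow and at 201, 229.8, 239 and 243 TPM on HSD. No library overlapped (-0.61 ± 0.10, adjusted p = 0.00623), and the call held in all 8 fits with a library left out. Plin4, a droplet coat protein, was at 1374 ± 128 and 762 ± 173 TPM (-0.68 ± 0.19, adjusted p = 0.0471; kept in 1 of the 8 fits, and lost at 0.143 with the length trend removed). Of 21 genes of insulin signalling 1 fell, and 4 were higher: Grb14, an adaptor that inhibits the insulin receptor, was at 25.4, 20.2, 23 and 19.2 TPM on chow and at 11.1, 8.96, 11.6 and 7.95 TPM on HSD (-1.21 ± 0.24, adjusted p = 0.0158; kept in 6). The receptor gene Insr had a log2 fold change of -0.22 ± 0.14 (adjusted p = 0.346). Hsd11b1 (chr1:193221634-193264075), the enzyme that regenerates active glucocorticoid inside the cell, was at 156, 148, 201 and 163 TPM on chow and at 269.6, 233, 395 and 319 TPM on HSD. Here too no library overlapped (1.03 ± 0.20, adjusted p = 0.0121), and the call held in all 8 fits.

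Genes of lipid-associated macrophages fell in part. Of 24 tested, 8 fell, 9 had a positive log2 fold change and the median was -0.24, so that the list did not move as a whole. The 8 were Mmp12, Atp6v0d2, Itgax, Ctsk, Gpnmb, Spp1, Ctss and Lipa. Mmp12, a metalloelastase secreted by macrophages, had the largest fall among the genes called. Its window, chr9:7347124-7347373 (plus strand), the second of its 2 RefSeq starts in GRCm38.p6, is shown because it is 1 of 3 windows on this list with TCATGTGA, a sequence known to be bound by factors of the MITF and TFE family, and Mitf itself fell. Capitals mark the match, which reads TCACATGA on the strand shown and lies 84 bases before the start. The window lies inside the GENCODE span of Mmp12 (given below). For the other RefSeq start no match was listed in the 250 bases before it.
Mmp12: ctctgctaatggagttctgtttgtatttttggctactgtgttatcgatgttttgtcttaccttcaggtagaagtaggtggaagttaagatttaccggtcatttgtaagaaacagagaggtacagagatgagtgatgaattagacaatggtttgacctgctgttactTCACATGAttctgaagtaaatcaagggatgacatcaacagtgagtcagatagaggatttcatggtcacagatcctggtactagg
TCATGTGA was found in 3 of the 18 list genes with a window (Mmp12, Ctss and Acp5; 16.7%) and in 1.15% of all genes with one. Mitf was at 17.1, 15.2, 7.5 and 9.48 TPM on chow and at 4.50, 4.71, 6.43 and 4.62 TPM on HSD (-1.06 ± 0.26, adjusted p = 0.0347), a call kept only without chow replicate 3. Other motifs were as frequent on the list: TGANTCA, known from the AP-1 factors, was in 4 of the 18 (22.2% against 8.97% of all genes), with a match also in the Mmp12 window shown, left in lower case, and CACGTG was in 4 of the 18 (22.2% against 8.09%). A match is a description of the sequence.

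Mmp12 (chr9:7344381-7369499) was at 17.2, 9.23, 8.77 and 25.3 TPM on chow, was listed at 0 in HSD replicates 1 to 3 and was at 0.0572 TPM in HSD replicate 4. That is 468 counts in the chow libraries and 1 in the HSD libraries, a ratio of depth-scaled counts of 385.3 (95% interval 68.82 to 15250, counting error only; adjusted p = 0.000303). Spp1, which encodes osteopontin, was at 2.52, 1.48, 13.3 and 2.54 TPM on chow and at 0, 0, 0.137 and 0.137 TPM on HSD. With 169 against 2 counts the same ratio was 69.57 (18.96 to 579.1; adjusted p = 0.0289), and chow replicate 3 held most of the chow level. Atp6v0d2 (chr4:19876841-19922605), a subunit of the lysosomal proton pump found in macrophages and osteoclasts, was at 2.6, 2.37, 5.73 and 4.70 TPM on chow and at 0.898, 0.341, 0.639 and 0.567 TPM on HSD (-2.85 ± 0.42, adjusted p = 0.00339). Itgax, which encodes CD11c, was at 3.13, 6.17, 5.82 and 7.17 TPM on chow and at 1.90, 2.17, 0.973 and 1.78 TPM on HSD (-1.51 ± 0.26, adjusted p = 0.00656). Ctsk, a lysosomal collagen-cleaving protease, was at 23.5, 22.9, 24.5 and 22.5 TPM on chow and at 10.8, 11.1, 8.95 and 9.59 TPM on HSD (-1.04 ± 0.20, adjusted p = 0.0117). In all of these every HSD library lay below every chow library.

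Gpnmb, a glycoprotein of lipid-laden macrophages, went from 16.6 ± 6.89 to 4.63 ± 0.654 TPM (-1.61 ± 0.32, adjusted p = 0.0158), while Ctss, a lysosomal protease, and Lipa, the lysosomal acid lipase, fell by less (-0.51 ± 0.13 and -0.36 ± 0.09, adjusted p = 0.04 for both). Trem2, the receptor after which these cells are often recognised, was at 4.59, 4.42, 20 and 4.98 TPM on chow and at 7.26, 5.79, 3.88 and 8.35 TPM on HSD. HSD replicate 3 lay below the chow libraries and the other HSD libraries between chow replicate 4 and chow replicate 3 (-0.26 ± 0.48, adjusted p = 0.786; 0.64 without chow replicate 3). Among general macrophage markers 2 of 18 fell, Cd68, a lysosomal glycoprotein (-0.76 ± 0.19, adjusted p = 0.034), and Mertk, a receptor for apoptotic cells (-0.61 ± 0.15, adjusted p = 0.034), and the median was -0.06. Csf1r, the receptor for the macrophage growth factor, was at 63.3 ± 8.85 TPM on chow and 52.1 ± 9.48 TPM on HSD (adjusted p = 0.62), and Adgre1, which encodes F4/80, at 25.7 ± 5.99 and 17.7 ± 4.69 TPM (adjusted p = 0.186). The summed TPM of the general markers ran from 0.824 to 1.21 times the chow mean on chow and from 0.746 to 1.127 on HSD. Of 13 monocyte and inflammatory genes 2 fell, the chemokine gene Ccl8 (-2.20 ± 0.52, adjusted p = 0.0295) and Nos2, inducible nitric oxide synthase (-0.74 ± 0.20, adjusted p = 0.0446).

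Mmp12, Atp6v0d2, Itgax and Ctsk kept their calls in all 8 fits with a library left out, Gpnmb in 5, Mertk in 4, Spp1 and Ccl8 in 3, Ctss and Cd68 in 2, and Lipa and Nos2 in 1. The list of lipid-associated macrophages held 4 calls without HSD replicate 1 and 8 falls and 1 rise without chow replicate 1. It held 7 calls with the length trend removed, where Lipa lost its call (adjusted p = 0.0814), as did Mertk (0.0636) and Nos2 (0.0862), and 3 without chow replicates 2 and 4.

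Genes of blood vessels were lower on HSD. Of 25 endothelial genes 9 fell and 23 had a negative log2 fold change, with a median of -0.52; in 13 all HSD libraries lay below all chow libraries in TPM, against 18.3% of all genes. Pecam1, the endothelial adhesion molecule CD31, was at 131, 137, 101 and 134 TPM on chow and at 69.8, 75, 78.9 and 68.4 TPM on HSD, with no overlap (-0.63 ± 0.12, adjusted p = 0.0137). Vwf, von Willebrand factor, was at 15.8, 11, 11 and 40.2 TPM on chow and at 3.44, 5.28, 6.20 and 5.59 TPM on HSD. Chow replicate 4 stood far above the other chow libraries, and all HSD libraries lay below all 4 (-1.83 ± 0.37, adjusted p = 0.0163). The other falls were Cdh5, VE-cadherin (-0.69 ± 0.15, adjusted p = 0.023); Tek, the angiopoietin receptor Tie2 (-0.52 ± 0.11, adjusted p = 0.022); Kdr, VEGF receptor 2 (-0.57 ± 0.15, adjusted p = 0.04); Ptprb, an endothelial phosphatase (-0.66 ± 0.18, adjusted p = 0.0421); Adgrl4, an adhesion receptor (-0.57 ± 0.15, adjusted p = 0.0431); and 2 genes known from lymphatic vessels. Of those, Flt4, VEGF receptor 3, went from 4.84 ± 1.23 to 2.32 ± 0.520 TPM (adjusted p = 0.0409), and Prox1, a lymphatic transcription factor, from 0.371 ± 0.234 to 0.0418 ± 0.0516 TPM (adjusted p = 0.0236).

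Of 12 genes of mural cells (pericytes and vascular smooth muscle) 4 fell and all 12 had a negative log2 fold change, with a median of -0.61. Pdgfrb, the pericyte receptor for platelet-derived growth factor, was at 20.5, 24.7, 19.8 and 23 TPM on chow and at 12.1, 14, 14.2 and 11.8 TPM on HSD (-0.59 ± 0.11, adjusted p = 0.0102). Myh11, smooth muscle myosin, was at 15.8, 15.5, 15.8 and 33.2 TPM on chow, chow replicate 4 again being highest, and at 3.79, 5.83, 9.38 and 4.40 TPM on HSD (-1.60 ± 0.39, adjusted p = 0.034). Acta2, smooth muscle actin, went from 165 ± 49.9 to 70.2 ± 2.40 TPM (-0.93 ± 0.25, adjusted p = 0.0475), and Notch3, a receptor of mural cells, from 8.86 ± 1.47 to 4.69 ± 1.06 TPM (-0.81 ± 0.19, adjusted p = 0.0295). Rgs5, a pericyte regulator of G proteins, was at 151 ± 48.5 and 92.2 ± 12.7 TPM (adjusted p = 0.0922). Among 18 angiogenic factors and coreceptors 3 fell: Nrp1, a coreceptor for VEGF, at 81.8, 107, 56.8 and 95.8 TPM on chow and 40.1, 41.7, 42.3 and 42.7 TPM on HSD (-0.87 ± 0.16, adjusted p = 0.0102); Nrp2, its relative in lymphatic vessels (-0.56 ± 0.11, adjusted p = 0.0118); and Apln, which encodes the vessel peptide apelin (-1.32 ± 0.33, adjusted p = 0.0361).

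Some matrix genes fell as well. Of 29 collagens tested 3 fell, all chains of collagen VI, which surrounds adipocytes; 27 had a negative log2 fold change and the median was -0.46. In 5 of the 29 all HSD libraries lay below all chow libraries in TPM, a share near the 18.3% of all genes. Col6a1 (chr10:76708792-76726168) was at 158, 269.6, 211 and 237 TPM on chow and at 116, 110.2, 72.3 and 89.5 TPM on HSD (-1.01 ± 0.18, adjusted p = 0.009). Col6a2 was at 107, 207, 151 and 189.6 TPM on chow and at 96.1, 90.5, 58 and 61.9 TPM on HSD (-0.93 ± 0.22, adjusted p = 0.0305), and Col6a3 at 20.5, 48.2, 40.9 and 40.4 TPM on chow and at 17.6, 19, 14.4 and 16.3 TPM on HSD (-0.98 ± 0.23, adjusted p = 0.0295). In each chain all HSD libraries lay below all chow libraries, and chow replicate 1 came closest to them. The fibrillar collagens did not pass: Col1a1 was at 33.8, 57.2, 63.7 and 66.4 TPM on chow and at 51.8, 38.7, 21.3 and 29.1 TPM on HSD (-0.49 ± 0.26, adjusted p = 0.277), and Col3a1 had a log2 fold change of -0.41 ± 0.22 (adjusted p = 0.277).

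Of 16 basement membrane genes 2 fell and all 16 had a negative log2 fold change: Hspg2, the proteoglycan perlecan (-0.74 ± 0.17, adjusted p = 0.0256), and Lamc1, a laminin chain (-0.43 ± 0.10, adjusted p = 0.0252, with overlapping ranges in TPM). Of 34 other matrix genes 4 fell, with a median of -0.31. Mmp2, a gelatinase, was at 26.2, 26.5, 28.2 and 28.9 TPM on chow and at 15.6, 15.4, 16.8 and 15.6 TPM on HSD, tight groups without overlap (-0.62 ± 0.12, adjusted p = 0.0109). Sparc, a collagen-binding protein, was at 3352 ± 427 and 1951 ± 75.7 TPM (-0.61 ± 0.15, adjusted p = 0.0325), Postn, periostin, at 86.6 ± 29 and 42.3 ± 5.16 TPM (-1.01 ± 0.21, adjusted p = 0.0176), and Bgn, the proteoglycan biglycan, at 249.8 ± 46.7 and 133 ± 9.02 TPM (-0.74 ± 0.17, adjusted p = 0.0242). Lox, which cross-links collagen, had a log2 fold change of -0.65 ± 0.18 (adjusted p = 0.0523). Of 14 markers of fibroblasts and adipocyte progenitors edgeR called 0, with 1 lower at an unadjusted p under 0.05 and 1 called by DESeq2, and the median was 0.02.

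In the vessel and matrix lists Pdgfrb, Nrp1, Col6a1 and Mmp2 kept their calls in all 8 fits with a library left out, Pecam1, Vwf and Nrp2 in 7, Prox1 and Postn in 5, Cdh5, Tek, Notch3, Myh11 and Hspg2 in 3, Kdr, Adgrl4, Apln, Col6a2, Col6a3, Lamc1, Bgn and Sparc in 2, and Flt4, Ptprb and Acta2 in 1. Without HSD replicate 1 the endothelial list held 0 calls by edgeR (16 lower at an unadjusted p under 0.05 and 12 called by DESeq2 on all libraries) and the mural, collagen and matrix lists 1 each. The most calls were 11 endothelial, 5 mural and 7 matrix genes without chow replicate 3, and 9 collagens without chow replicate 1. With the length trend removed the medians were -0.45 for endothelial, -0.56 for mural and -0.35 for collagen genes, with 4, 2 and 1 called, and 5 matrix genes were called (median -0.18). The calls lost in that fit were those of Tek, Kdr, Flt4, Ptprb, Adgrl4, Notch3, Myh11, Nrp2, Col6a2 and Col6a3 (adjusted p 0.0566 to 0.121), and of Hspg2 (-0.42, adjusted p = 0.201) and Lamc1 (-0.29, adjusted p = 0.118). The basement membrane list, whose median transcript length is 5174 bases, then had a median of -0.25 against -0.38, with 2 genes positive and 1 called; with 1 library left out it held 0 calls (without HSD replicate 1; 10 lower at an unadjusted p under 0.05 and 5 called by DESeq2 on all libraries) to 6 (without chow replicate 1). The collagens' median transcript length is 5108 bases and that of the endothelial genes 2352. Without chow replicates 2 and 4 the medians were -0.44, -0.54 and -0.31, and edgeR called 0 in each of the 3 lists. The summed TPM of the endothelial list ran from 0.792 to 1.211 times the chow mean on chow and from 0.635 to 0.78 on HSD. For the mural list it ran from 0.889 to 1.113 and from 0.588 to 0.611. For the collagens the sums overlapped, at 0.651 to 1.164 on chow and 0.535 to 0.757 on HSD, with chow replicate 1 lowest on chow.

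**Figure D3:**
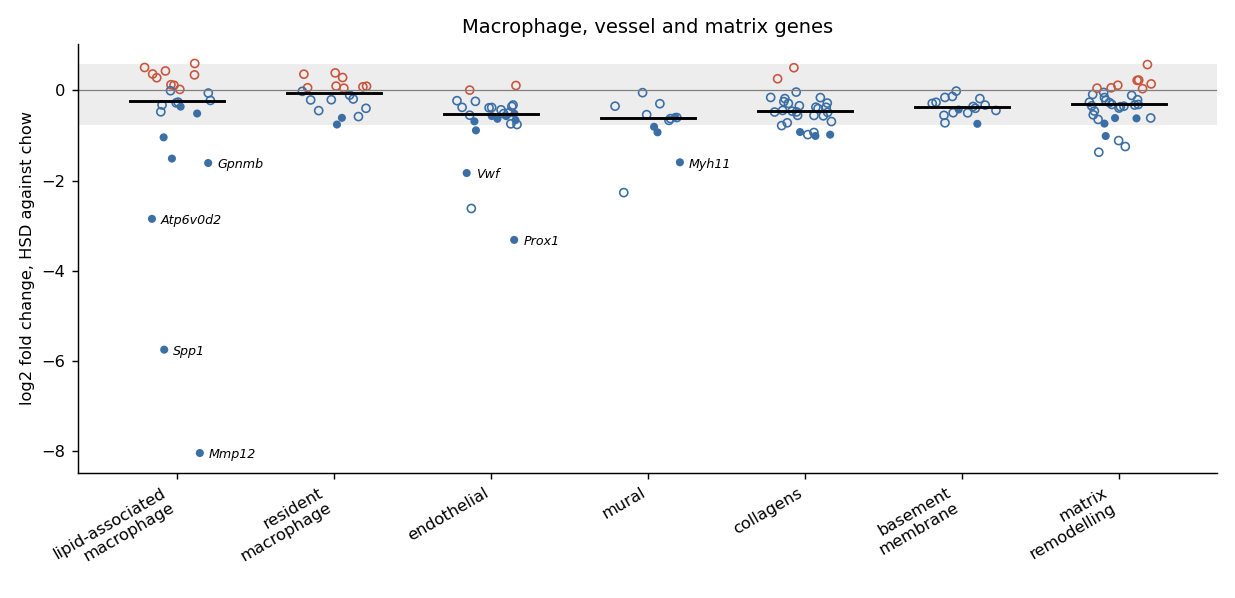
Log2 fold change (HSD against chow) of each tested gene of the macrophage, vessel and matrix lists; filled points passed the test, and open points did not. Mmp12 and Spp1 lie far below the rest of the macrophage list, and the mural and basement membrane lists lie wholly below 0.

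**Figure D4:**
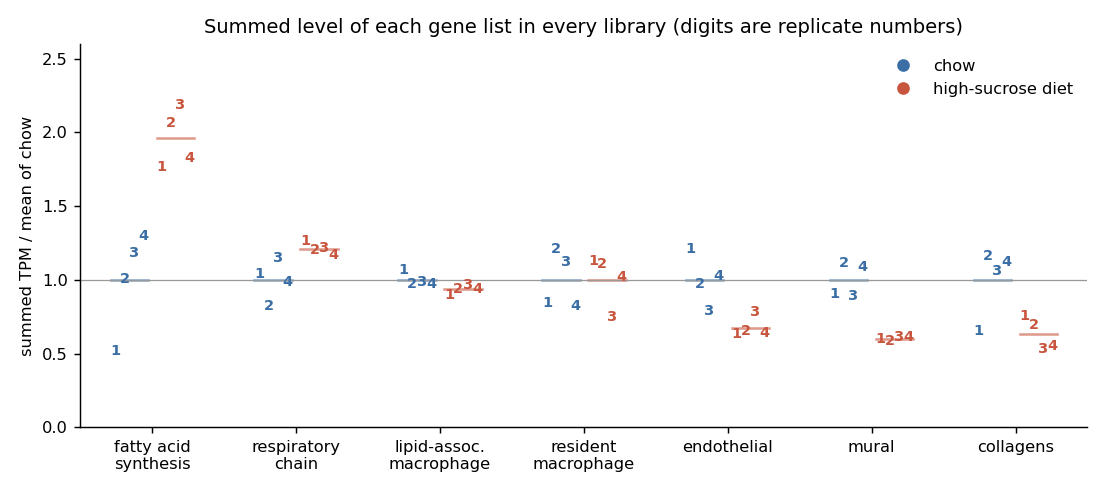
Summed TPM of 7 gene lists in each CTRL WAT library, divided by the mean of the 4 chow libraries; digits are replicate numbers and lines are group means. The HSD libraries lie above all chow libraries for fatty acid synthesis and the respiratory chain, and below them for endothelial and mural genes. For general macrophage markers and collagens the groups overlap. For lipid-associated macrophage genes the HSD libraries lie below by a narrow margin (0.901 to 0.963 against 0.972 to 1.065 on chow), while TPM was lower on HSD for most genes. That sum was 9091 to 9962 TPM on chow. Mmp12, Spp1, Atp6v0d2, Itgax and Ctsk, at most 25.3 TPM each, made up little of it, so it is no measure of them.

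Several of the 15 genes with the largest rises lie outside the pathways above. H2-Q10, a class I histocompatibility gene usually expressed in liver, was at 4.55, 2.17, 15 and 11.6 TPM on chow and at 71.8, 78.6, 86.1 and 99.0 TPM on HSD (3.52 ± 0.53, adjusted p = 0.00452). It has near-identical family copies among which reads can be split, so its level is uncertain. Alb, the liver's albumin gene, was at 9.99, 17.5, 18.1 and 16.6 TPM on chow and at 44.1, 37.5, 33.8 and 35.2 TPM on HSD, which did not overlap either (1.44 ± 0.67, adjusted p = 0.213). Of 12 liver markers 6 were tested and edgeR called 0 (1 higher at an unadjusted p under 0.05, 0 called by DESeq2), and 5 stayed under 1 TPM in all 8 libraries. The list's summed level was 2174 to 3747 TPM on chow and 2336 to 4361 TPM on HSD. Alb (at most 44.1 TPM), Apoa1 (at most 3.01 TPM) and Ttr (at most 1.86 TPM) made up little of it, so the sum is no measure of liver RNA. In CTRL liver on HSD, H2-Q10 averaged 1301 TPM and Alb 59030 TPM. In CTRL WAT on HSD they averaged 83.9 and 37.6 TPM. The part of liver RNA in the rise of H2-Q10 was not tested. Parm1, a membrane mucin-like gene, was at 5.29 ± 1.42 TPM on chow and 16.9 ± 2.89 TPM on HSD (1.85 ± 0.38, adjusted p = 0.0198), Rims4, a gene known from synapses, at 1.48 ± 0.305 and 3.48 ± 0.194 TPM (1.4 ± 0.24, adjusted p = 0.00807), and Chchd10, of the mitochondrial intermembrane space, at 5.20 ± 2.83 and 13.7 ± 6.31 TPM (1.56 ± 0.43, adjusted p = 0.0467). The others were the low-level genes Bcas1 (1.88 ± 0.44, adjusted p = 0.028), Srd5a1, a steroid reductase (1.33 ± 0.36, adjusted p = 0.0471), and the ATP-gated channel gene P2rx6 (1.31 ± 0.26, adjusted p = 0.0137). H2-Q10 and Rims4 kept their calls in all 8 fits with a library left out, P2rx6 in 7, Parm1 in 6, Bcas1 in 2, and Chchd10 and Srd5a1 in 1; with the length trend removed Chchd10 (adjusted p = 0.0678) and Srd5a1 (adjusted p = 0.0579) lost theirs.

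Among the 15 largest falls, those outside the lists above were mostly at low levels. Ect2, of cell division, was at 1.4 ± 0.567 TPM on chow and 0.275 ± 0.318 TPM on HSD (adjusted p = 0.0346), and the myeloid receptor gene Cd300ld5, with near relatives beside it, at 11.8 ± 3.63 and 1.36 ± 2.18 TPM (adjusted p = 0.0407). The calcium channel gene Cacna1e was at 2.16 ± 1.39 and 0.328 ± 0.156 TPM (-2.49 ± 0.55, adjusted p = 0.0242), P2rx1, a channel of platelets and smooth muscle, at 1.71 ± 0.767 and 0.371 ± 0.140 TPM (-2.43 ± 0.63, adjusted p = 0.04), and Disp2, related to a hedgehog release factor, at 2.07 ± 1.23 and 0.372 ± 0.100 TPM (-2.25 ± 0.44, adjusted p = 0.013). Unc79, of a sodium leak channel (adjusted p = 0.0178), Zim1, an imprinted zinc finger gene (adjusted p = 0.0482), Cadps, of vesicle release (adjusted p = 0.0475), and the integrin gene Itga8 (adjusted p = 0.0464, with overlapping TPM ranges) were at low levels in every library. Ankrd29 was at 10.7 ± 2.49 and 5.41 ± 2.09 TPM, while its counts fell further, by 2.41 ± 0.48 on the log2 scale (adjusted p = 0.0158), so that the size of its fall differed between the scales. With a library left out, Disp2 kept its call in 7 fits, Unc79 in 6, Ankrd29 in 5, Cacna1e in 4, Ect2 and Cd300ld5 in 3, and P2rx1, Zim1, Cadps and Itga8 in 1; with the length trend removed Itga8, Zim1 and Cadps lost theirs (adjusted p 0.0651 to 0.0818).

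In mice labelled KO the same diets were compared, and the difference of the 2 diet effects was tested directly. The targeted gene was higher in the livers labelled KO. On chow, Pklr in liver averaged 113.0 TPM (61.59 to 141.2) in CTRL and 211.7 TPM (146.8 to 267.6) in labelled KO. On HSD it averaged 212.6 TPM (154.1 to 263.2) and 405.1 TPM (313.7 to 458.7). Whether these levels include a mutated transcript was not tested. In CTRL WAT Pklr was at most 0.811 TPM. Of 13255 genes 76 (0.573%) differed in diet effect (edgeR quasi-likelihood, adjusted p under 0.05), and 34 of these were among the 632. In the labelled KO mice 358 genes rose (2.7%) and 488 fell (3.68%). Whether whole lists differed between the labels was not tested. Side by side, list medians of the log2 fold change were 0.87 in CTRL and 0.72 in labelled KO for fatty acid synthesis, 0.44 and 0.23 for the respiratory chain, -0.52 and -0.33 for endothelium, and -0.46 and -0.94 for collagens, of which 18 fell in labelled KO.

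Clock genes held 7 of the 76 differences, and 3 of the 8 with the smallest p, and in several of them the diet effects had opposite signs. Hlf, a transcription factor driven by the clock, was at 2.92, 2.94, 4.47 and 2.52 TPM on chow and at 1.59, 1.04, 1.94 and 1.18 TPM on HSD in CTRL, a fall without overlap (-0.92 ± 0.21, adjusted p = 0.0246, kept in 4 of the 8 fits with a library left out). In labelled KO it was at 1.15 to 1.66 TPM on chow and 5 to 6.45 TPM on HSD (2.10 ± 0.21, adjusted p = 0.000115), and the difference of the effects was 3.03 ± 0.30 (adjusted p = 0.000178). Per3, a core repressor of the clock, fell in CTRL from 11.4 ± 3.43 to 4.79 ± 1.02 TPM (-1.09 ± 0.28, adjusted p = 0.0392), a call lost in each of the 8 fits with a library left out (adjusted p 0.0522 to 0.12) and with the length trend removed (0.0802), and had a log2 fold change of 1.29 ± 0.28 in labelled KO. Tef, a relative of Hlf, had log2 fold changes of -0.45 ± 0.18 in CTRL and 1.29 ± 0.18 in labelled KO, and Arntl, the activator BMAL1 that peaks opposite to them, 0.39 ± 0.24 and -2.09 ± 0.26. The clock list held 2 falls among 18 in CTRL (median -0.15), and 10 rises and 4 falls in labelled KO (median 1.04). A clock score (6 genes of 1 phase, Hlf, Tef, Ciart, Dbp, Per3 and Per2, against Clock, Npas2 and Arntl, as a difference of mean log2 levels) was -0.50 to 1.43 in CTRL chow and -1.51 to 0.23 in CTRL HSD libraries, which overlap. In labelled KO it was -1.59 to 0.09 on chow and 2.46 to 3.30 on HSD, a larger step without overlap. With it as a covariate no interaction passed edgeR's test (638 of 13255 at an unadjusted p under 0.05; without the covariate DESeq2 called 519), and 287 genes were called for CTRL. The score holds Hlf, Tef, Per3 and Arntl, whose own diet effects differed, and in labelled KO it moved with the diet. That fit therefore cannot tell clock phase from the interaction itself, and the part of clock phase in these differences was not tested.

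Of the other genes with the smallest interaction p, Rai2, a transcriptional coregulator, was at 18.4, 17.4, 14.5 and 17.7 TPM on chow and at 7.42, 7.02, 7.46 and 8.52 TPM on HSD in CTRL. It fell without overlap in CTRL (-0.99 ± 0.14, adjusted p = 0.00339, kept in all 8 fits with a library left out), and was at 0.44 ± 0.14 in labelled KO, a difference of 1.43 ± 0.20 (adjusted p = 0.00603). Pard6g, a polarity protein, had log2 fold changes of -0.65 ± 0.22 and 1.96 ± 0.23, Dhtkd1, of lysine breakdown, -0.36 ± 0.09 (a call lost with the length trend removed, adjusted p = 0.191) and 0.67 ± 0.09, and Gtf2i, a transcription factor, -0.52 ± 0.10 and 0.40 ± 0.10. Fam180a ran the other way, at 0.82 ± 0.17 in CTRL and -0.81 ± 0.17 in labelled KO. With a library left out, the CTRL calls of Fam180a, Gtf2i and Dhtkd1 were kept in 7, 5 and 1 of the 8 fits. Gpam, the enzyme of the first step of triglyceride synthesis, had log2 fold changes of -0.47 ± 0.17 and 1.05 ± 0.17, a difference of 1.52 ± 0.24 (adjusted p = 0.013).

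**Figure D5:**
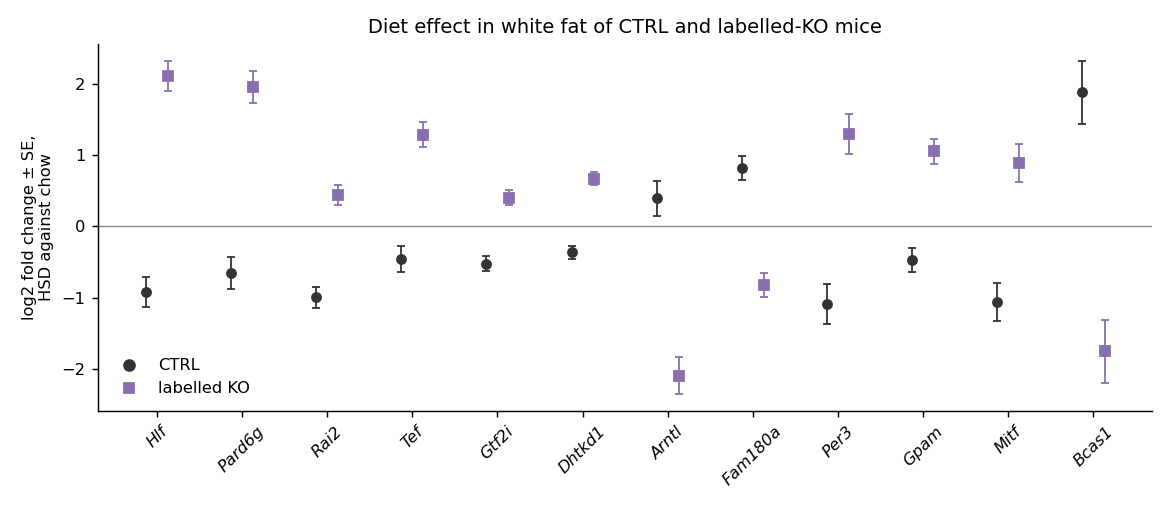
Log2 fold change (HSD against chow) with its SE in CTRL (circles) and labelled KO (squares) WAT for 12 genes whose diet effect differed between the genotype labels. For Hlf, Tef and Per3 the CTRL points lie below 0 and the labelled KO points above it; Arntl shows the reverse.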

How the data were processed

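RNA was measured by sequencing 16 white fat libraries, of which 8 (CTRL) are the subject. The authors deposited, for all 64 libraries of the series, a table of estimated counts per gene (expected counts, not whole numbers) and a table of TPM, which is scaled per transcript length and library. Per the submitters' processing notes reads were quantified with kallisto against GRCm38; the kallisto version and the annotation were not given in the sources used here. Counts were rounded, genes with low counts were dropped (edgeR filterByExpr, minimum count 10; 13255 of 19521 genes kept), libraries were scaled by TMM, and edgeR's quasi-likelihood test (robust; edgeR 4.0.16, R 4.3.3) was fitted with a mean for each of the 4 groups of 16 libraries, which share 1 estimate of spread. P-values were adjusted over all genes (Benjamini-Hochberg, 0.05). The SE of a log2 fold change is its size over the square root of F. TPM was used for levels. Gene positions are from GENCODE M21 and promoter windows from RefSeq (GRCm38.p6).

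The members, gene lists and tests were chosen with earlier results of these data known; the 9 motifs were chosen after the values were seen. The genes named are the 15 largest rises and 15 largest falls among called genes whose log2 CPM averaged 1 or more and whose groups did not overlap in CPM, called or key members of the lists, and the 8 smallest interaction p-values; any other is said to be chosen after its values were seen. Some results under this rule are not reported here. Besides CCAAT and TCATGTGA, both strands of 32851 windows were searched for TCACNCCAC (1.44% of genes with a window), CACGTG (8.09%), TGANTCA (8.97%), CCGGAAGT (4.31%), TCACGTGA (1.12%, contains CACGTG), the NRF1 palindrome (1.07%) and the long YY1 motif (0.755%). On simulated counts for this comparison over 13255 genes the test recovered 29.9% of 67 genes changed 1.5-fold, 52.2% of 67 changed 2-fold and 90.9% of 66 changed 4-fold, with 4 false calls. These counts were drawn independently for each gene and library. They hold no length trend or other shift shared by the genes of a library, so false calls from such shifts were not measured. Alternatives were DESeq2 1.42.0 (size factors in edgeR, and its own test), no filter, limma 3.58.1 on log2(TPM + 1), the 8 CTRL libraries alone, removal of each library's trend on transcript length, a clock score as covariate, chow replicates 2 and 4 left out, and each library left out. Replicates are numbered 1 to 4 in the order of their titles.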

Additional observations from a re-analysis of the deposited data

Results flagged for a closer look

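For 144 genes the 4 chow and the 4 HSD libraries of CTRL WAT were each searched for a library standing apart from the other 3 (Dixon's test at 95%). Of 288 such sets 18 (6.25%) held one; chance gives about 1 in 20. On chow, replicate 3 stood low for Gpam (75.6 TPM) and Pecam1 (101 TPM) and high for Spp1 (13.3 TPM), Trem2 (19.98 TPM) and Mycbp2 (86.0 TPM). Replicate 4 stood high for Vwf (40.2 TPM), Myh11 (33.2 TPM) and Itga8 (1.88 TPM), a set that includes vessel and smooth muscle genes. Replicate 2 stood low for Cox4i1, a subunit of cytochrome c oxidase (661 TPM), and replicate 1 low for Lamc1 (80.6 TPM). On HSD, replicate 3 stood low for Ndufa12 (230.5 TPM) and Lamc1 (64 TPM) and high for Mitf (6.43 TPM) and Chchd10 (23.1 TPM). Replicate 2 stood high for Npr3 (190.2 TPM) and Npc2, a lysosomal cholesterol transporter (379.9 TPM), replicate 1 low for Nrp2 (8.00 TPM) and replicate 4 above the others, at 0.0572 TPM, for Mmp12, listed at 0 in the other 3.

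The diet effect differed between the genotype labels (edgeR quasi-likelihood test of the difference, Benjamini-Hochberg adjusted) for 14 of the genes named here. Each value is the log2 fold change in labelled KO minus that in CTRL. It was positive for Hlf (3.03, adjusted p = 0.000178), Pard6g (2.61, adjusted p = 0.0018), Dhtkd1 (1.03, adjusted p = 0.0018), Rai2 (1.43, adjusted p = 0.00603), Tef (1.74, adjusted p = 0.00633), Gpam (1.52, adjusted p = 0.013), Gtf2i (0.92, adjusted p = 0.013), Per3 (2.38, adjusted p = 0.0148), Ace (0.72, adjusted p = 0.0203), Mitf (1.95, adjusted p = 0.0281) and Spp1 (8.21, adjusted p = 0.0436). It was negative for Arntl (-2.48, adjusted p = 0.00603), Fam180a (-1.63, adjusted p = 0.00603) and Bcas1 (-3.63, adjusted p = 0.0182). The value of Spp1 rests on 2 counts in the CTRL HSD libraries and is no bound. Pklr in liver was higher under the label KO, and what these differences belong to was not tested.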

How the results depend on the processing

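The count of 632 genes was 641 with DESeq2 size factors, 420 (151 higher, 269 lower) without the low-count filter, 1218 (574 and 644) with the DESeq2 test, 1448 (128 and 1320) with limma on TPM, 388 (170 and 218) on the 8 CTRL libraries alone, 367 (113 and 254) after removal of the length trend, 287 (89 and 198) with a clock covariate and 9 (3 and 6) without chow replicates 2 and 4. With 1 library left out it ran from 94 to 1024, with 30 to 520 higher and 64 to 504 lower. The interaction count of 76 was 70, 58, 519, 43, 74 and 0 under the first 4 alternatives, length removal and clock covariate, 46 without chow replicates 2 and 4, and 17 to 276 with 1 library left out. Of 114 named genes called, 112, 90, 114 and 102 were still called under the first 4, 72 after length removal, 60 after adding the clock score, 9 without chow replicates 2 and 4, and 30 to 106 with 1 library left out. The fit without chow replicates 2 and 4 has fewer samples; the cause of the other shifts was not tested. Uncalled genes changed sign in 2 cases: Trem2 was at 0.64 without chow replicate 3 (-0.48 to 0.64 with 1 library left out), and Arntl at -0.0447 with the clock covariate. No paired analysis was possible because the chow and HSD groups are different mice whose labels share no numbers. On simulated counts at this depth 29.9% of 1.5-fold changes were recovered, so genes that did not pass may differ by that much.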

Other observations

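Antioxidant enzymes moved in both directions. Of 20 tested 4 rose: Gsta4, which conjugates lipid aldehydes to glutathione, was at 44.6, 50.9, 49 and 46.3 TPM on chow and at 82.6, 72.1, 73.4 and 85.9 TPM on HSD, without overlap (0.89 ± 0.11, adjusted p = 0.00142). Sod1, the cytosolic superoxide dismutase (0.59 ± 0.11, adjusted p = 0.0102), Gpx4, which reduces lipid peroxides (0.63 ± 0.14, adjusted p = 0.0216), and Prdx1, a peroxiredoxin (0.41 ± 0.10, adjusted p = 0.0391), rose as well. The extracellular Sod3 (-0.52 ± 0.12, adjusted p = 0.0245) and the thioredoxin reductase Txnrd1 (-0.42 ± 0.11, adjusted p = 0.0401) fell. Lysosomal genes also split: of 30, Npc2 (0.69 ± 0.15, adjusted p = 0.0198) and the proton pump subunit Atp6v1g1 (0.53 ± 0.11, adjusted p = 0.0158) rose while Atp6v0d2 and Mitf fell. With a library left out, Gsta4 and Sod1 kept their calls in all 8 fits, Gpx4 in 5, Npc2 and Atp6v1g1 in 4, Sod3 in 3, and Prdx1 and Txnrd1 in 1; with the length trend removed Sod3, Prdx1 and Txnrd1 lost theirs (adjusted p 0.0661 to 0.177).

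Of 12 markers of the mesothelium, the cell layer that covers visceral fat, all 12 had a positive log2 fold change, with a median of 0.71, and edgeR called 0 (7 higher at an unadjusted p under 0.05, 1 called by DESeq2). Msln, mesothelin, was at 62, 91.8, 55.6 and 41.3 TPM on chow and at 130.2, 87.4, 45.2 and 110.0 TPM on HSD, and Upk3b at 50.8, 88.3, 93.8 and 58.3 TPM and at 167, 129, 48 and 135 TPM. The summed level of the list ran from 268 to 452 TPM on chow and from 219 to 709 TPM on HSD, HSD replicate 3 being lowest; its part in the other results was not tested. Of 28 genes of cell division 1 fell, Ect2, and 3 were higher. Mki67, a marker of dividing cells, was at 0.680, 4.69, 2.76 and 1.79 TPM on chow and at 0.776, 0.669, 0.876 and 0.988 TPM on HSD (-1.41 ± 0.56, adjusted p = 0.147). Fos, an immediate early gene, fell from 9.86 ± 3.77 to 2.41 ± 1.38 TPM (-1.86 ± 0.48, adjusted p = 0.0416), a call lost in each of the 8 fits with a library left out (adjusted p 0.0548 to 0.114).

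Under all 17 fits 8 genes were called: Mmp12, Atp6v0d2 and Gsta4, and 5 chosen after their values were seen, which no list holds. Those were Sult1a1, a sulfotransferase, at 278, 381, 299.9 and 317 TPM on chow and 551, 541, 425 and 583 TPM on HSD (0.92 ± 0.11, adjusted p = 0.00113), and Nat8l, the enzyme that makes N-acetylaspartate, at 7.81, 8.33, 8.43 and 10.6 TPM on chow and 14.5, 15.7, 17.1 and 16.9 TPM on HSD (1.03 ± 0.14, adjusted p = 0.00288). Lower were Ace, angiotensin-converting enzyme, at 39.1, 37.5, 45.4 and 42.5 TPM on chow and 24, 22.4, 22.9 and 20.7 TPM on HSD (-0.67 ± 0.09, adjusted p = 0.00288), and Prelp, a matrix proteoglycan, at 571, 802, 379 and 454 TPM on chow and 202, 202, 177 and 212 TPM on HSD (-1.31 ± 0.18, adjusted p = 0.00288). Mycbp2, a ubiquitin ligase, was at 75.1 ± 7.37 TPM on chow and 33.6 ± 2.57 TPM on HSD (-1.01 ± 0.12, adjusted p = 0.00113). In each of these 5 the groups did not overlap.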
